A study of Rattus norvegicus with 9 samples.

Results

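The integrated stress response and the unfolded protein response were followed in the superior mesenteric artery (SMA) of rats through 10 genes, namely Atf4, Atf6, Ern1, Xbp1, Ddit3, Trib3, Chac1, Asns, Sesn2 and Herpud1. These genes were chosen by symbol for their known roles in both responses, out of 37203 gene symbols in the count table. Earlier results of these data were known when they were chosen. All 10 were in the table, and all 10 were among the 15482 genes that passed the filter on low counts. None of the 10 was called changed at 1 h or at 4 h of ischemia by the quasi-likelihood test of edgeR. In their levels, 3 patterns could be seen. Xbp1 and Herpud1, genes of the endoplasmic reticulum (ER) arm, were higher than in every normal artery, Xbp1 at both times and Herpud1 at 4 h. Atf6 of this arm was so at both times with smaller fitted changes than Xbp1, while Ern1 overlapped between the groups. A log2 fold change above 0 was common, with 9 of the 10 genes at 1 h and 7 at 4 h. Ddit3, the death effector of both responses, was lower in every ischemic artery than in every normal one. Asns and Chac1, targets of ATF4, were high in 3 libraries that also carried high levels of sympathetic neuron transcripts.

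Both responses are ways in which a cell copes with unfolded protein, missing nutrients or low oxygen. In the integrated stress response, kinases phosphorylate eIF2alpha, general translation slows, and translation of the transcription factor ATF4 goes up. ATF4 in turn drives genes of amino acid supply such as Asns and, when stress lasts, the factor CHOP encoded by Ddit3. In the unfolded protein response, 3 sensors in the ER membrane react to misfolded protein. PERK, encoded by Eif2ak3, feeds into the eIF2alpha branch. IRE1, encoded by Ern1, splices the Xbp1 mRNA, and ATF6 is cut in the Golgi to release a transcription factor. Gene counts hold the amount of each mRNA only, so eIF2alpha phosphorylation, ATF4 translation, Xbp1 splicing and ATF6 cleavage were not measured.

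The arteries came from Sprague-Dawley rats aged 8 weeks, with 3 normal rats, 3 rats after ischemia for 1 h and 3 rats after ischemia for 4 h. In the ischemia model, rats under sodium pentobarbital were bled through a catheter in the right femoral artery, and time was counted from the moment the model stood. Whether the normal rats were also anaesthetised and catheterised is not given in the sources used here, so blood loss, surgery and anaesthesia cannot be told apart. The whole vessel was used, and in such bulk tissue fewer cells of a type and less RNA per cell cannot be told apart.

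Libraries held between 13114273 and 15504240 counts, so that after TMM scaling 1 CPM (a unit of counts scaled to library size) stood for 12.1 to 17.9 counts. All CPM values below are TMM-scaled, and they compare a gene between libraries, not 1 gene with another. Smooth muscle markers were abundant in every library, and Myh11, the smooth muscle myosin heavy chain, lay between 4690 and 23500 CPM. Pecam1, an endothelial adhesion molecule, lay between 112 and 293 CPM. Summed levels of marker lists ran from 10700 to 67000 CPM for smooth muscle, 755 to 1780 for endothelium, 1750 to 4410 for fibroblasts, 391 to 2640 for adipocytes, 41.2 to 230 for macrophages, 22.1 to 93.4 for lymphocytes and plasma cells, 0.739 to 6.82 for neutrophils, 1.07 to 29.6 for gut epithelium and 27.6 to 204 for skeletal muscle. Defining markers of surrounding tissue lay between 35.5 and 216 CPM for Adipoq of fat and 0.331 and 15.3 CPM for Cpa1 of exocrine pancreas. The summed level of 22 sympathetic neuron markers was 797, 51.2 and 478 CPM in normal replicates 1 to 3, 11000, 1200 and 11300 CPM at 1 h, and 65.2, 74.2 and 11100 CPM at 4 h. Dbh, the enzyme that makes noradrenaline, had 1850 and 1870 CPM in the first and last replicate of the 1 h group, 2040 CPM in the last replicate of the 4 h group, and no more than 226 CPM elsewhere. These 3 libraries stood apart in their neuron sums. All counts and fits were repeated with the 3 left out together, an alternative added after seeing the data, which leaves 1 library at 1 h that is assumed to vary like the other groups.

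Across all 15482 genes, edgeR called 9 genes (0.0581%) for 1 h against normal, 14 genes (0.0904%) for 4 h against normal, 0 genes (0%) for 4 h against 1 h and 6 genes (0.0388%) over the 3 groups together, at an adjusted p under 0.05 and a fold over 1.5. DESeq2 called more, namely 702 genes (4.53%), 610 genes (3.94%), 0 genes (0%) and 669 genes (4.32%) in the same order. Of the 10 stress response genes, edgeR called 0 in each comparison. DESeq2 called Xbp1 at 1 h, and Xbp1 and Herpud1 at 4 h and over the 3 groups. At an unadjusted p under 0.05, edgeR counted 2 of the 10 for 1 h against normal, against 16.7% of all genes, and 2 of the 10 for 4 h against normal, against 12.4% of all genes. For 4 h against 1 h it counted 1 of the 10, against 2.58% of all genes, and over the 3 groups 2 of the 10, against 11.4%. These counts moved with single libraries. For 1 h against normal it was 1 of the 10 without normal replicate 2 or 3 or 1 h replicate 3, and without the last of these the count over all genes went from 2578 to 1267. For 4 h against 1 h, where the only gene counted was Herpud1, the count was 0 without 1 h replicate 3 or 4 h replicate 1, with 127 and 139 genes in all in place of 400, and 2 without 4 h replicate 3, with 3295 genes in all. Over the 3 groups, leaving out 4 h replicate 3 gave 4 of the 10 and 3818 genes in all in place of 1771. Without the 3 neuron-rich libraries, edgeR called 0 of the 10 in each comparison, and 3 of the 10 at 1 h and 3 at 4 h were at an unadjusted p under 0.05, as were 1316 and 1837 of 16116 genes. Levels did not overlap between 1 h and normal in 3 of the 10 genes, where 26.3% of all genes did not overlap. Between 4 h and normal they did not overlap in 4 of the 10, against 18.7% of all genes, and between 4 h and 1 h in 0 of the 10, against 6.24%. At 1 h the share of the 10 genes was thus near the background. Both comparisons with normal use the same 3 normal libraries.

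**Figure D1:**
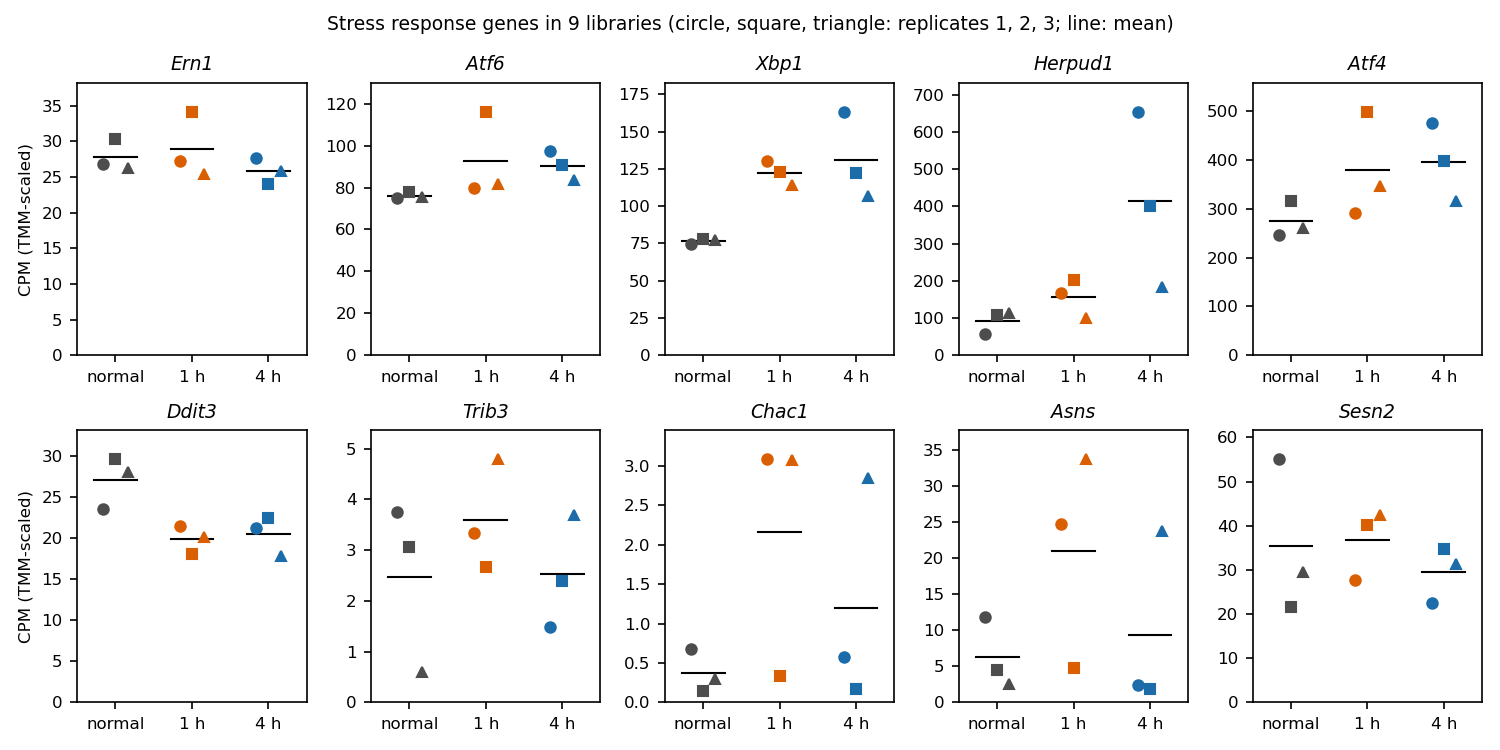
Level of each of the 10 genes in CPM (linear axis from 0) in 3 normal libraries, 3 libraries at 1 h and 3 at 4 h. Each point is a library, with circle, square and triangle for replicates 1, 2 and 3, and the line is the group mean. All 6 ischemic libraries lie above the normal ones for Xbp1 and below them for Ddit3, and Asns and Chac1 each have 3 high libraries.

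**Figure D2:**
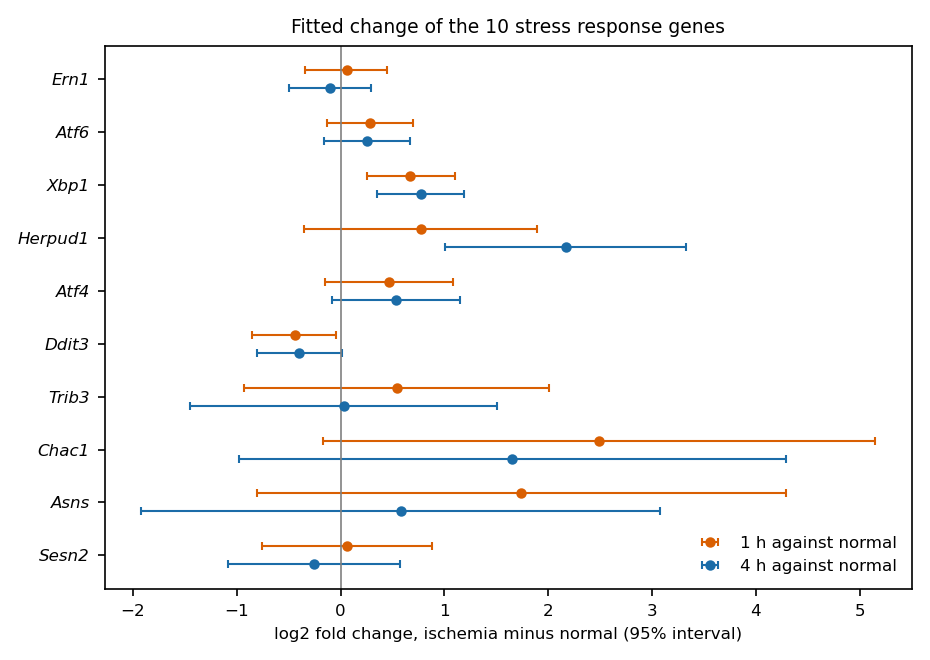
Fitted log2 fold change of each gene at 1 h (orange) and 4 h (blue) against normal, from the edgeR fit, with bars for the 95% interval. The interval lies above 0 for Xbp1 at both times and for Herpud1 at 4 h, and it is widest for Asns and Chac1.

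Xbp1 encodes the transcription factor that IRE1 activates, which drives secretory and ER-associated degradation genes. It was at 74.8, 78.1 and 77.2 CPM in normal replicates 1 to 3, at 130, 123 and 114 CPM at 1 h, and at 163, 122 and 107 CPM at 4 h. Every ischemic library lay above every normal one, while the 1 h and 4 h libraries overlapped. The mean went from 76.7 ± 1.7 CPM (SD, n = 3) in normal arteries to 122 ± 8.29 CPM at 1 h and 131 ± 28.7 CPM at 4 h. The log2 fold change was 0.67 (SE 0.18, adjusted p = 0.218 by edgeR) at 1 h and 0.77 (SE 0.18, adjusted p = 0.16 by edgeR) at 4 h. By DESeq2 the adjusted p was 0.0216 at 1 h and 0.00579 at 4 h, with log2 fold changes of 0.69 and 0.79. The difference between 4 h and 1 h was 0.09 on the log2 scale, with a 95% interval from -0.33 to 0.51. Exocrine pancreas and plasma cells are known for high Xbp1. The summed level of 12 exocrine pancreas markers was 64.6, 15.5 and 17.4 CPM in normal, 5.28, 187 and 10.9 CPM at 1 h and 8.68, 87.5 and 160 CPM at 4 h. The plasma cell marker Mzb1 was at no more than 0.307 CPM in any library. The 12 lymphocyte and plasma cell markers together summed to 22.1 to 93.4 CPM. Of the 3 tested ones, Sdc1 was lower at both times at an unadjusted p under 0.05 by edgeR, and none was higher. The part of exocrine pancreas and plasma cells in the Xbp1 levels was not tested. Without the 3 neuron-rich libraries the log2 fold change of Xbp1 was 0.7 (adjusted p = 0.567 by edgeR) at 1 h and 0.91 (adjusted p = 0.28 by edgeR) at 4 h.

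Herpud1 encodes a membrane protein of the ER that takes part in degradation of misfolded protein. It was at 55.9, 107 and 113 CPM in normal replicates 1 to 3, at 168, 202 and 101 CPM at 1 h, and at 653, 402 and 184 CPM at 4 h. All 3 libraries at 4 h lay above all 3 normal ones, and they spread over a wide range, while the 1 h libraries overlapped both groups. The mean was 92 ± 31.4 CPM (SD, n = 3) in normal, 157 ± 51.3 CPM at 1 h and 413 ± 235 CPM at 4 h. The log2 fold change at 4 h was 2.17 (SE 0.51, 4.49-fold, adjusted p = 0.154 by edgeR and 0.00171 by DESeq2), and at 1 h it was 0.77 (SE 0.49, adjusted p = 0.4 by edgeR). The 4 h level exceeded that at 1 h by a log2 difference of 1.39 (SE 0.49), with adjusted p of 0.856 by edgeR and 0.882 by DESeq2. Of the 10 genes, Herpud1 had the largest fitted difference between these times in the direction of 4 h.

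Within each group, Herpud1 also had the same order over the libraries as the smooth muscle markers. The summed level of 10 smooth muscle markers was 10700, 46500 and 47200 CPM in normal replicates 1 to 3, 24600, 45300 and 12400 CPM at 1 h, and 67000, 48100 and 23600 CPM at 4 h. In each group the order of Herpud1 over the 3 replicates was the order of this sum. The summed skeletal muscle markers had that order too, at 27.6, 123 and 173 CPM in normal, 73, 110 and 32.1 CPM at 1 h and 204, 115 and 55.1 CPM at 4 h. How many of all genes share this order was not counted. At similar smooth muscle sums of 46500, 45300 and 48100 CPM, in replicate 2 of each group, Herpud1 was at 107, 202 and 402 CPM. This sets 1 library per group side by side, with neuron sums of 51.2, 1200 and 74.2 CPM. The part of cell content in these Herpud1 levels was not tested. With the mean log2 CPM of the smooth muscle list as a covariate, an alternative added after seeing the data, the log2 fold change of Herpud1 was 0.9 at 1 h (adjusted p = 0.14 by edgeR) and 1.74 at 4 h (adjusted p = 0.0592 by edgeR). With the mean log2 CPM of the neuron markers as a covariate it was 1.55 at 1 h (adjusted p = 0.306) and 2.09 at 4 h (adjusted p = 0.0436, a call by edgeR). Without replicate 3 at 4 h, the neuron-rich library of that group, it was 2.52 (adjusted p = 0.127), and without replicate 1 at 4 h it was 1.64 (adjusted p = 0.368). Without all 3 neuron-rich libraries it was 1.14 at 1 h (adjusted p = 0.645) and 2.53 at 4 h (adjusted p = 0.207).

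**Figure D3:**
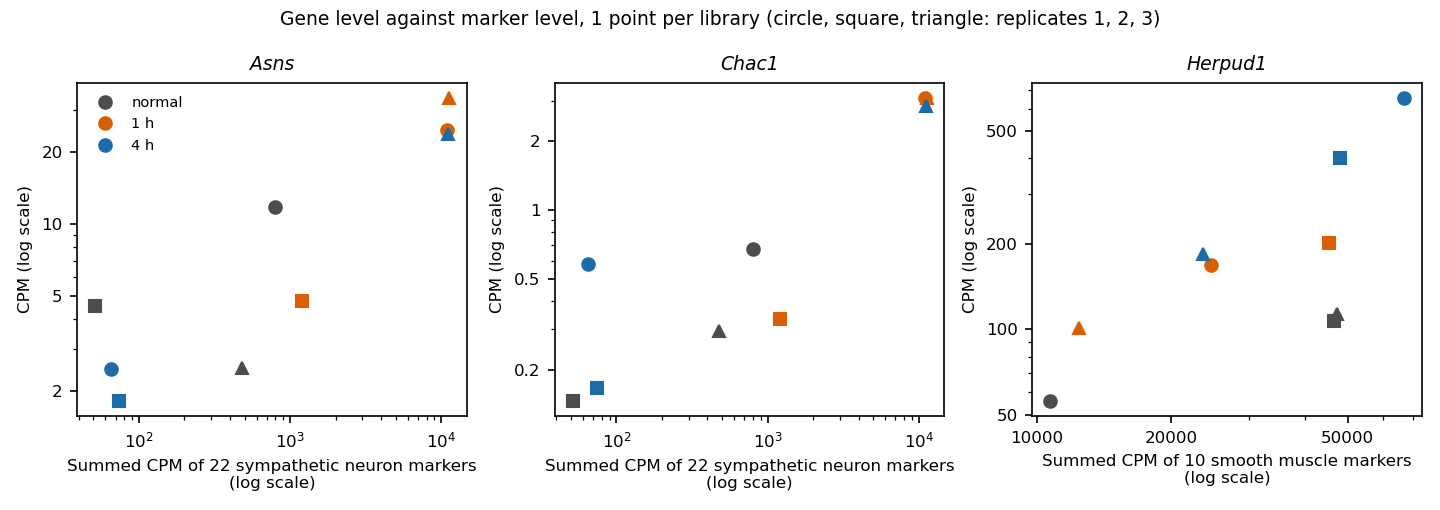
Level of Asns and Chac1 against the summed level of 22 sympathetic neuron markers, and of Herpud1 against the summed level of 10 smooth muscle markers, in CPM on log axes, with 1 point per library (circle, square and triangle for replicates 1, 2 and 3). The 3 libraries with neuron sums of 11000 to 11300 CPM hold the 3 highest values of Asns and Chac1, and Herpud1 at 4 h goes from 184 to 653 CPM as the smooth muscle sum goes from 23600 to 67000 CPM.

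Response elements for both pathways are known from promoters of such genes. Sequence before the start was read from RefSeq promoter windows of assembly GRCr8, which reach from 250 bases before to 50 bases after the start and were at hand for 8 of the 10 genes, all but Atf6 and Ern1. The build behind the counts is not given in the sources used here, and these positions belong to GRCr8 only. The windows were searched on both strands for the ER stress element ERSE (CCAAT and CCACG with 9 bases between them, in 0.0657% of all 33469 windows), ERSE-II (ATTGG and CCACG with 1 base between them, in 0.0508%), the XBP1 element UPRE (TGACGTGG, in 0.595%), the ATF4 composite element CARE (TGATGNAA, in 3.98%) and the cyclic AMP element CRE (TGACGTCA, in 1.83%). Xbp1 (chr14:84604373-84604622, plus strand) holds an ERSE that starts 65 bases before the start site, and Hspa5 (chr3:38452766-38453015, plus strand), the gene of the main ER chaperone, holds one 43 bases before it. Herpud1 (chr19:10614708-10614957, minus strand) holds an ERSE-II 124 bases before the start and a CARE on the opposite strand 184 bases before it. The start site of this Herpud1 window lies inside the span of the RefSeq gene. Chac1 (chr3:126795881-126796130, plus strand) holds a CARE on the opposite strand 167 bases before the start. The 250 bases upstream are shown for these 4 genes because they hold the ER stress elements of Xbp1, Herpud1 and Hspa5 and, in Herpud1 and Chac1, the ATF4 element, with the matches in capitals. A match describes the letters only.
Xbp1: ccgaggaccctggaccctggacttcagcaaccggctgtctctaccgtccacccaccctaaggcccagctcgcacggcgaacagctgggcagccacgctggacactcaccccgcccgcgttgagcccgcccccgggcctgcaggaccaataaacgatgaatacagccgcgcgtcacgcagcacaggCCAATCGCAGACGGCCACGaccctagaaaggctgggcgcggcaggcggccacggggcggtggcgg
Herpud1: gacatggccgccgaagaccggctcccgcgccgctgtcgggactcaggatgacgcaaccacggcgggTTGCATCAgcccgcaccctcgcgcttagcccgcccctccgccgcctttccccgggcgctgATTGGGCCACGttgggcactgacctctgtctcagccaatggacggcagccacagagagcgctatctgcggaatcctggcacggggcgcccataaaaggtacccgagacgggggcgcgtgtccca
Hspa5: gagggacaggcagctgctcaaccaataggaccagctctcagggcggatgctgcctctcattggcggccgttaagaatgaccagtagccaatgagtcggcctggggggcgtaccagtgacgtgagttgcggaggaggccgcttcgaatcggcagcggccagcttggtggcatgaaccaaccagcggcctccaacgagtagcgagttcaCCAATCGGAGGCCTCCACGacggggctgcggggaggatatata
Chac1: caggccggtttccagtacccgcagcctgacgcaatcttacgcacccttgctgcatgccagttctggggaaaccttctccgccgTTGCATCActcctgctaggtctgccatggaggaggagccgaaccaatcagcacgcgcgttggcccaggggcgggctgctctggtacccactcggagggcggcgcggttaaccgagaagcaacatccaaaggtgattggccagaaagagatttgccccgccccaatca
Trib3 held a CARE on the opposite strand 21 bases before the start. Asns, Atf4, Ddit3 and Sesn2 held none of these letters in their windows.

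Ern1, the gene of the sensor IRE1, was at 26.8, 30.4 and 26.3 CPM in normal, 27.2, 34.1 and 25.4 CPM at 1 h and 27.7, 24 and 25.9 CPM at 4 h. The 3 groups overlapped, and the log2 fold change was 0.06 (95% interval -0.34 to 0.45) at 1 h and -0.1 (95% interval -0.5 to 0.29) at 4 h. Atf6 was at 74.9, 77.9 and 75.3 CPM in normal, 79.6, 116 and 81.8 CPM at 1 h and 97.3, 90.6 and 83.6 CPM at 4 h. Every ischemic library lay above every normal one, but the fitted log2 fold changes were 0.28 (SE 0.18, adjusted p = 0.405 by edgeR) at 1 h and 0.25 (SE 0.18, adjusted p = 0.589 by edgeR) at 4 h. Replicate 2 at 1 h held the highest level of Ern1, Atf6 and Atf4. Without it, the log2 fold change of Atf6 at 1 h was 0.085 (adjusted p = 0.756 by edgeR). The third sensor gene, Eif2ak3, was at 25.7 ± 7.9 CPM (SD, n = 3) in normal, 27.3 ± 4.98 CPM at 1 h and 23 ± 3.73 CPM at 4 h.

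Downstream of the sensors, Hspa5 and Edem1 lay higher in every ischemic library than in every normal one. Hspa5, which encodes the chaperone BiP and is the classical readout of the unfolded protein response, was at 129, 145 and 238 CPM in normal, 498, 438 and 389 CPM at 1 h and 714, 494 and 566 CPM at 4 h. The log2 fold change was 1.37 (SE 0.29, adjusted p = 0.168 by edgeR) at 1 h and 1.79 (SE 0.29, adjusted p = 0.0712 by edgeR) at 4 h. By DESeq2 it was called at both times, with adjusted p of 0.000915 and 1.48e-06. With the neuron covariate edgeR called it at 4 h (log2 fold change 1.79, adjusted p = 0.0454), and with the smooth muscle covariate likewise (1.7, adjusted p = 0.0421). Edem1, which takes glycoproteins out of the folding cycle, went from 56.3 ± 4.28 CPM (SD, n = 3) in normal to 110 ± 32.2 CPM at 1 h and 132 ± 12.2 CPM at 4 h, with adjusted p of 0.188 and 0.0803 by edgeR and of 0.00642 and 0.000122 by DESeq2. Dnajb9, an XBP1 target and cochaperone of BiP, was at 29 ± 4.59, 38.3 ± 1.9 and 36.9 ± 10.2 CPM in the 3 groups, and its 4 h libraries overlapped the normal ones.

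Lists of pathway genes put these values in a wider frame, and no gene of any list was called by edgeR against normal. In what follows, a gene is counted at an unadjusted p under 0.05, which 7.98% of all genes reached at 1 h in the direction of higher levels and 8.67% in the direction of lower levels. At 4 h these shares were 5.07% and 7.35%. Over all genes the median log2 fold change was -0.008 at 1 h and 0.027 at 4 h. In the list of the IRE1 and XBP1 arm, 3 of 23 tested genes were counted higher and 0 lower at 1 h (Xbp1, Edem1 and Sec23b), and 6 of 23 higher and 0 lower at 4 h, with medians of 0.19 and 0.3. Over 18 alternatives the 4 h count ran from 2 (library size only) to 7, with 3 higher without any 1 of the normal libraries, 1 h replicate 1 or 4 h replicates 1 or 2, and the medians ran from 0.11 (without normal replicate 2) to 0.31 at 1 h and from 0.16 to 0.37 at 4 h. In the ATF6 and chaperone list, 3 of 20 were counted higher and 1 lower at 1 h, and 6 of 20 higher and 0 lower at 4 h, with medians of 0.33 and 0.27. Here the counts of higher genes ran from 1 (without normal replicate 2 or 1 h replicate 1) to 7 at 1 h and from 2 (without normal replicate 2) to 6 at 4 h, with 3 without 4 h replicate 1, and the medians from 0.2 (with the neuron covariate or without 1 h replicate 2) to 0.37 and from 0.12 (library size only) to 0.36. Hsp90b1, the ER member of the HSP90 family, was among the higher ones at both times, at 277 ± 60.4 CPM (SD, n = 3) in normal and 454 ± 25.7 CPM at 4 h. In ER-associated degradation, 6 of 18 were counted higher and 0 lower at 1 h and 7 of 18 higher and 0 lower at 4 h, with medians of 0.4 and 0.43. The 1 h count was 3 without 1 h replicate 3 and 2 without the 3 neuron-rich libraries, the 4 h count was 2 with library size only, and the medians ran from 0.3 to 0.45 and from 0.25 to 0.48. Besides Herpud1 and Edem1 these included Nploc4, a cofactor of the segregase VCP, at 36.2 ± 3.13 CPM (SD, n = 3) in normal, 67.4 ± 5.11 CPM at 1 h and 56.7 ± 20.7 CPM at 4 h. Some genes stand in 2 lists, so the lists are not independent. The lists were also chosen with earlier results of these data known.

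**Figure D4:**
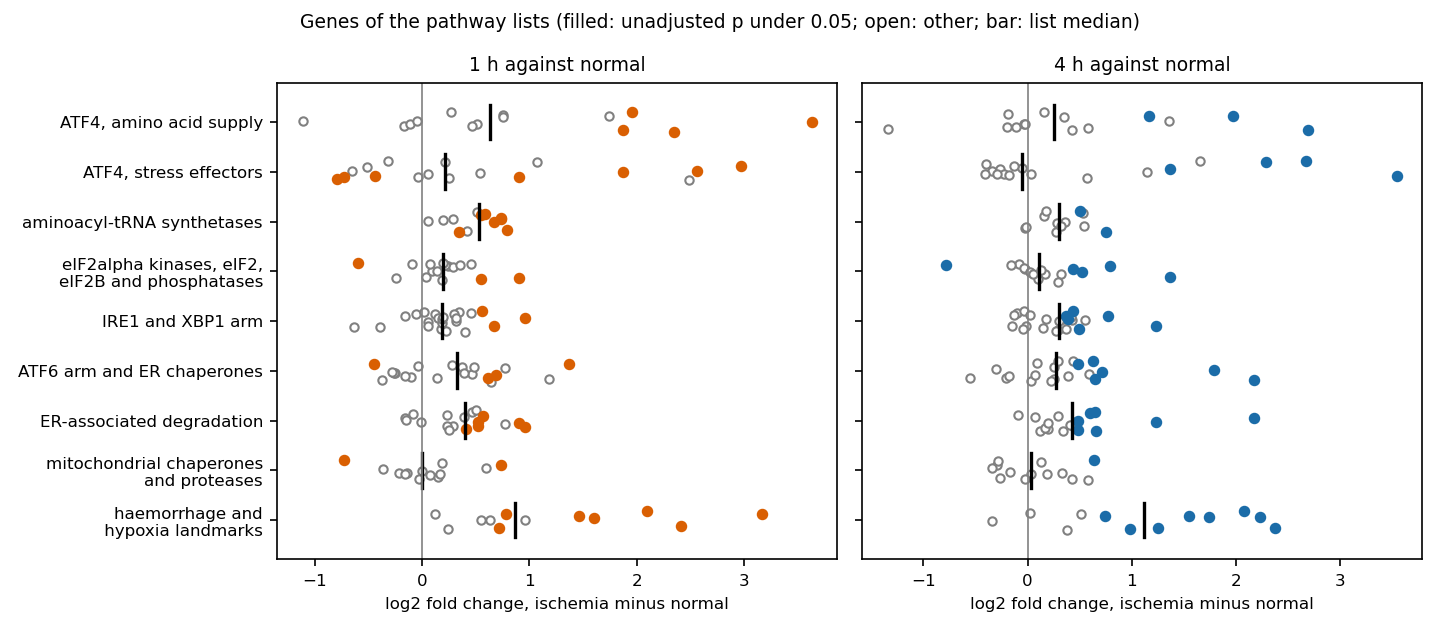
Log2 fold change of each tested gene of 9 lists at 1 h (left) and 4 h (right) against normal, with filled points for an unadjusted p under 0.05, open points for the rest and a bar for the list median. In the degradation list 6 of 18 points at 1 h and 7 of 18 at 4 h are filled, all on the higher side.

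Atf4, the transcription factor at the centre of the integrated stress response, was at 246, 316 and 260 CPM in normal, 292, 498 and 346 CPM at 1 h and 476, 397 and 315 CPM at 4 h. The groups overlapped through normal replicate 2. The mean was 274 ± 37.3 CPM (SD, n = 3) in normal, 379 ± 107 CPM at 1 h and 396 ± 80.5 CPM at 4 h, and the log2 fold change was 0.47 (SE 0.27, adjusted p = 0.363 by edgeR) at 1 h and 0.53 (SE 0.27, adjusted p = 0.464 by edgeR) at 4 h.

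Ddit3, which encodes CHOP, a factor tied to cell death under lasting ER stress, was at 23.6, 29.6 and 28.1 CPM in normal, 21.5, 18.1 and 20.2 CPM at 1 h and 21.3, 22.5 and 17.8 CPM at 4 h. All 6 ischemic libraries lay below all 3 normal ones, with means of 27.1 ± 3.13 CPM (SD, n = 3) in normal, 19.9 ± 1.7 CPM at 1 h and 20.5 ± 2.42 CPM at 4 h. The log2 fold change was -0.44 (SE 0.18, adjusted p = 0.288 by edgeR) at 1 h and -0.4 (SE 0.18, adjusted p = 0.407 by edgeR) at 4 h, and DESeq2 did not call it at either time (adjusted p of 0.177 and 0.315). The 95% interval at 4 h ran from -0.81 to 0.01. Ppp1r15a, whose product GADD34 directs the phosphatase that reverses eIF2alpha phosphorylation and which CHOP is known to induce, was higher in every ischemic library than in every normal one. It was at 119 ± 47.6 CPM (SD, n = 3) in normal, 222 ± 27.6 CPM at 1 h and 308 ± 24.7 CPM at 4 h, with adjusted p of 0.234 and 0.111 by edgeR and of 0.0353 and 0.000183 by DESeq2. Atf3, a further partner of ATF4 and CHOP, overlapped between all groups, at 48.4 ± 36.3, 57.7 ± 18.9 and 46.9 ± 19 CPM.

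Trib3, a pseudokinase induced by ATF4 and CHOP, was at 3.75, 3.07 and 0.591 CPM in normal, 3.34, 2.67 and 4.79 CPM at 1 h and 1.49, 2.4 and 3.7 CPM at 4 h, and the groups overlapped. Its log2 fold change was 0.54 (SE 0.64) at 1 h and 0.03 (SE 0.65) at 4 h, with 95% intervals from -0.93 to 2.01 and from -1.45 to 1.51. Sesn2, a leucine sensor that restrains mTORC1, was at 55, 21.5 and 29.5 CPM in normal, 27.7, 40.1 and 42.5 CPM at 1 h and 22.6, 34.7 and 31.3 CPM at 4 h. The highest and the lowest of its 9 values were both from normal arteries. Its log2 fold change was 0.06 (95% interval -0.76 to 0.88) at 1 h and -0.26 (95% interval -1.08 to 0.57) at 4 h.

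Asns encodes asparagine synthetase, the classical amino acid response gene. It was at 11.8, 4.53 and 2.51 CPM in normal, 24.7, 4.75 and 33.7 CPM at 1 h and 2.48, 1.82 and 23.8 CPM at 4 h. Chac1 encodes an enzyme that breaks down glutathione, and it was at 0.672, 0.146 and 0.295 CPM in normal, 3.08, 0.334 and 3.07 CPM at 1 h and 0.579, 0.166 and 2.84 CPM at 4 h. These low Chac1 values rest on 12, 2 and 4 counts in normal, 46, 5 and 50 counts at 1 h and 7, 2 and 43 counts at 4 h. In both genes replicates 1 and 3 at 1 h and replicate 3 at 4 h were high, the same 3 libraries that held neuron sums of 11000 to 11300 CPM, and the other ischemic libraries lay within or below the range of the normal ones. The log2 fold change at 1 h was 1.74 for Asns (SE 1.11, adjusted p = 0.406 by edgeR) and 2.49 for Chac1 (SE 1.16, adjusted p = 0.311 by edgeR). At 4 h it was 0.58 for Asns (SE 1.09) and 1.65 for Chac1 (SE 1.15).

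The 4 h values of these genes rested on replicate 3. Without it, the log2 fold change at 4 h was -1.54 for Asns (adjusted p = 0.526 by edgeR) and -0.021 for Chac1 (adjusted p = 0.998 by edgeR). With the neuron markers as a covariate Asns was at -0.38 at 1 h and -0.51 at 4 h, and Chac1 at 0.48 and 1.02. At 1 h Asns was at 1.61 without replicate 1 and 1.22 without replicate 3, and Chac1 at 2.15 and 2.13. Without all 3 neuron-rich libraries Asns was at -0.37 at 1 h and -1.5 at 4 h, and Chac1 at -0.14 and 0.019. All of the 22 neuron markers had a log2 fold change above 0 at both times, with medians of 4.14 and 3.02, and 2 of them at 1 h and 1 at 4 h reached an unadjusted p under 0.05. At 1 h neuron content and ischemia cannot be fully told apart, since every 1 h library exceeded every normal one in its neuron sum.

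Slc7a5, Mthfd2 and Slc7a1, other genes of amino acid supply under ATF4, were higher in all 6 ischemic libraries than in the normal ones. They were named because they had the smallest p of their list by edgeR at 1 h or 4 h. Of 14 tested genes of this list, 4 at 1 h and 3 at 4 h lay wholly above normal. The shares of all genes were 12.8% and 7.93%. Slc7a5, the large neutral amino acid transporter, was at 7.89, 10.9 and 11.7 CPM in normal, 59.9, 208 and 112 CPM at 1 h and 47.4, 15.9 and 56.5 CPM at 4 h. Its highest value came from replicate 2 at 1 h. The neuron sum there was 1200 CPM, against at most 797 CPM in normal libraries. The log2 fold change of Slc7a5 was 3.63 (SE 0.6, adjusted p = 0.117 by edgeR) at 1 h and 1.97 (SE 0.56, adjusted p = 0.212 by edgeR) at 4 h. DESeq2 called Slc7a5 at both times (adjusted p of 1.4e-07 and 0.0193). Over 18 alternatives, among them the neuron covariate, its log2 fold change ran from 3.07 to 4.35 at 1 h and from 1.64 to 2.35 at 4 h. Apart from these refits, the part of neuron content was not tested for Slc7a5. Mthfd2, a mitochondrial enzyme of one-carbon metabolism, was at 8.97 ± 7.45 CPM (SD, n = 3) in normal, 45.6 ± 5.45 CPM at 1 h and 57.8 ± 22 CPM at 4 h, with adjusted p of 0.206 and 0.122 by edgeR and of 0.00311 and 0.000269 by DESeq2. Slc7a1, the cationic amino acid transporter, was at 11.9 ± 2.83, 43.6 ± 4.24 and 26.9 ± 14.9 CPM in the 3 groups. In the amino acid list as a whole, 4 of 14 tested genes were counted higher and 0 lower at 1 h and 3 of 14 higher and 0 lower at 4 h. The list medians were 0.63 and 0.25, and without normal replicate 1, the normal library with the least smooth muscle, they were 1.74 and 1.11, with 7 genes counted higher at 1 h. Without normal replicate 2 they were 0.21 and -0.16, without normal replicate 3 they were 0.36 and 0.084, and at 4 h the median was 0.14 without 4 h replicate 2 and -0.14 without 4 h replicate 3. With the neuron covariate the 1 h median was 0.04, and without the 3 neuron-rich libraries the medians were 0.33 and -0.11. With the smooth muscle covariate they were 1.01 and 0.97, and with library size only the 4 h median was 0.075.

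Among the ATF4 stress effectors, 4 of 17 were counted higher and 3 lower at 1 h, and 4 of 17 higher and 0 lower at 4 h, with medians of 0.21 and -0.05. The sign of these medians was not stable. At 1 h the median was 0.53 without normal replicate 1, -0.085 without normal replicate 2, 0.078 without normal replicate 3, 0.018 without 1 h replicate 2, 0.14 without 1 h replicate 3 and 0.048 with the neuron covariate. At 4 h it ran from -0.28 (library size only) to 0.47 (without normal replicate 1). Cebpb, a bZIP partner of ATF4, was at 13.7, 32 and 32.9 CPM in normal, 223, 281 and 111 CPM at 1 h and 335, 388 and 193 CPM at 4 h. The groups did not overlap with normal, and the log2 fold change was 2.97 (SE 0.49, adjusted p = 0.117 by edgeR) at 1 h and 3.54 (SE 0.5, adjusted p = 0.0614 by edgeR) at 4 h. DESeq2 called Cebpb at both times (adjusted p of 6.31e-07 and 3.46e-10). By edgeR it was called at 4 h with library size only (adjusted p = 0.039) and the neuron covariate (0.0127), and at 1 h and 4 h with the smooth muscle covariate (0.00374 and 0.00231). Ddit4, an inhibitor of mTORC1 that low oxygen and glucocorticoids also induce, was at 53.9 ± 21 CPM (SD, n = 3) in normal, 197 ± 76.6 CPM at 1 h and 264 ± 103 CPM at 4 h. The 3 genes counted lower at 1 h were Ddit3, Atf5 and Eif4ebp1, and Atf5, a further ATF of this branch, was at 164 ± 43.6 CPM in normal and 99.2 ± 17.1 CPM at 1 h.

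Aminoacyl-tRNA synthetases, many of which are ATF4 targets, had 7 of 12 genes counted higher and 0 lower at 1 h and 2 of 12 higher and 0 lower at 4 h, with medians of 0.53 and 0.3. The 1 h count moved with single libraries and with the settings, and the cause was not tested. It was 1 of 12 without 1 h replicate 1 and 2 of 12 without 1 h replicate 3. With the neuron covariate it was 1 of 12, and without 1 h replicate 2 it was 9 of 12. It was 2 or 3 without 1 of the normal libraries, 4 without 4 h replicate 1, and 2 with library size only. Without the 3 neuron-rich libraries the 1 h median was 0.16. At 4 h the count was 0 with library size only or without 4 h replicate 1. It was 1 without normal replicate 3 and 4 without 4 h replicate 2. Eprs was at 89 ± 3.41 CPM (SD, n = 3) in normal, 131 ± 13.9 CPM at 1 h and 126 ± 14.8 CPM at 4 h, and Aars at 58.9 ± 0.352, 102 ± 26.8 and 99 ± 29.6 CPM. Of 16 genes of eIF2, its kinases, eIF2B and phosphatases, 2 were counted higher and 1 lower at 1 h and 4 higher and 1 lower at 4 h, with medians of 0.19 and 0.12. The 1 h median was 0.098 without normal replicate 3, and the 4 h median was 0.06 without it and -0.075 with library size only. These included Eif2s2, the beta subunit of eIF2, at 79.8 ± 10.7 CPM (SD, n = 3) in normal and 138 ± 25.1 CPM at 4 h. Of 13 mitochondrial chaperones and proteases, 1 was counted higher and 1 lower at 1 h and 1 higher and 0 lower at 4 h. The median at 4 h was 0.028, and it ran from -0.24 without 4 h replicate 1 to 0.25 without the 3 neuron-rich libraries. The higher one was Hspa9, the mitochondrial HSP70, at 89.1 ± 0.274 CPM (SD, n = 3) in normal, 149 ± 9.69 CPM at 1 h and 139 ± 20 CPM at 4 h. Hspd1, the mitochondrial HSP60, overlapped between groups, at 103 ± 19.1, 156 ± 42.9 and 154 ± 42.1 CPM.

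Landmarks of blood loss and low oxygen were counted beside these lists. Of 12 such genes, 7 were counted higher and 0 lower at 1 h and 8 higher and 0 lower at 4 h, with medians of 0.87 and 1.11. Those higher at both times were Hmox1, Vegfa, Bnip3, Adm, Pdk4, Fkbp5 and Per1, and Tsc22d3 was added at 4 h. Slc2a1, Ldha, Ndrg1 and Egln3 were counted at neither time. Over 18 alternatives the counts of higher genes ran from 5 to 8 at 1 h and from 6 to 8 at 4 h. Hmox1, heme oxygenase, was at 2.47 ± 1.58 CPM (SD, n = 3) in normal, 22.5 ± 12.7 CPM at 1 h and 12.9 ± 4.67 CPM at 4 h. Per1, a clock gene that glucocorticoids induce, was at 177 ± 23.5, 292 ± 80.4 and 519 ± 120 CPM. Of the pathway genes given above without a DESeq2 value, DESeq2 called Ddit4, Hspa9 and Hmox1 at both times, Slc7a1 and Nploc4 at 1 h, and Hsp90b1, Eif2s2 and Per1 at 4 h.

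The 10 genes differed in how much they varied within a group. The within-group SD of log2 CPM was lowest for Ern1 (0.15) and Ddit3 (0.16) and highest for Asns (1.57) and Chac1 (1.4), against a median of 0.44 over all genes tested. The genes whose centred log2 CPM lay nearest to a member over the 9 libraries, by root mean square difference and among genes of at least 5 CPM, were described without a test. Nearest to Xbp1 were Spata5 (0.13), Eif2s2 (0.14) and Ubxn4 (0.14). Nearest to Herpud1 were Smad7 (0.27), Tsc22d1 (0.28) and Heyl (0.28), and of the other members Xbp1 (0.74). Nearest to Asns were Pianp (0.35), Lzts1 (0.4) and Dmtn (0.4), and of the other members Chac1 (0.63). Chac1 lay nearest to Hcn2 (0.26), Slc9a9 (0.31) and Mest (0.32). Ddit3 lay nearest to Atp5sl (0.05), Imp3 (0.06) and Hars2 (0.1). Atf4 lay nearest to Prpf38a (0.08), Zfand5 (0.11) and Zfp868 (0.11). Atf6 was followed most closely by Phc2 (0.07), Hnrnpf (0.08) and Mfap1a (0.09), and Ern1 by Picalm (0.09), Zfp593 (0.1) and Eif2ak1 (0.1). Trib3 and Sesn2 were followed by Pex11a (0.35), Galnt10 (0.4) and Ssh2 (0.4), and by Arsk (0.12), Ctla2a (0.15) and Cd82 (0.15).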

How the data were processed

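Per the labels, RNA of the artery was extracted with Trizol, kept where its integrity number passed, and made into libraries by a standard Illumina protocol. The submitters' processing notes name the aligner HISAT2 without a version. The counting program, genome build, annotation and use of strand are not given in the sources used here, and the study's methods describe arrays, so which steps made the table is not settled. The authors deposited raw counts per gene symbol, and each of the 9 value columns matched 1 sample title. No column was left unmatched.

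Counts were analysed in R 4.3.3 with edgeR 4.0.16 (filterByExpr, TMM, glmQLFit and glmQLFTest), with group as the only term over all 9 libraries, and with Benjamini-Hochberg adjustment over 15482 genes. Calls needed an adjusted p below 0.05 together with a fold above 1.5. Standard errors are the log2 fold change divided by the square root of F. DESeq2 1.42.0 and the other alternatives appear in the closing section. Total counts were 13114273 to 15504240 per library, of 37203 symbols 13156 had no count, and the common biological coefficient of variation was 51.6%. Libraries were separate rats, 3 per group, and none was a copy of another (lowest chi-square per degree of freedom 23.2). Intervals cover the spread between these libraries, in which differences between rats, dissection and library preparation cannot be told apart. They do not cover the choice of settings.

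The members, the lists of genes and the naming rule were chosen with earlier results of these data known. The rule named all members, the landmarks Atf3, Ppp1r15a, Hspa5, Dnajb9 and Eif2ak3, the called genes and the 2 genes of smallest p in each pathway list at each time against normal, defining tissue markers, and the 3 genes nearest to each member in pattern. Other genes were named as members of a count after their values were seen. Promoter windows were read from RefSeq (GRCr8). The result of 1 further marker list is not reported here.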

Additional observations from a re-analysis of the deposited data

How the results depend on the processing

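The 10 stress response genes were refitted under 18 alternatives per comparison (17 over the 3 groups together), and Chac1 failed the filter when only normal and 4 h libraries entered. Of 539 refitted log2 fold changes of these genes, 495 kept direction and side of the threshold, 4 passed it only in the alternative (Xbp1 at both times and Herpud1 at 4 h by DESeq2, and Herpud1 at 4 h with the neuron covariate), and 40 turned direction, none of which had been called. The cause was not tested unless stated.

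By DESeq2, 1 of the 10 genes was called at 1 h, 2 at 4 h and 2 over the 3 groups, and calls over all genes were 702, 610 and 669, where edgeR had 9, 14 and 6. With the neuron covariate 1 of the 10 was called at 4 h, with 115 calls over all genes at 4 h and 27 over the 3 groups. With the smooth muscle covariate, added after seeing the data, all-gene calls were 34, 64 and 36. With the 3 neuron-rich libraries left out, also added after seeing the data, they were 7, 10 and 0. With only the 2 groups compared they were 4 and 4, and without a filter on low counts 11 over the 3 groups. Leaving out 1 library gave 0 to 11 calls at 1 h, 1 to 14 at 4 h and 0 to 7 over the 3 groups, while for the 10 genes it gave 0 calls throughout. The all-gene counts were 0 at 1 h and over the 3 groups without normal replicate 2 or 3, and 1 at 4 h without normal replicate 2. They moved by over 1.5 times at 1 h without any library but 1 h replicate 1 or 4 h replicate 3, at 4 h without any but 1 h replicate 2 or 4 h replicate 3, and over the 3 groups without any but 1 h replicates 1 and 2 or 4 h replicate 3.

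No regular pairing by replicate number was seen, since 4 of 9 same-numbered pairs had a correlation over 0.1 and 2 libraries correlated best with their own number. These correlations also take in tissue content, which differed within groups, so the check cannot show that the libraries were unpaired. With the replicate block, calls over all genes were 7 at 4 h and 0 over the 3 groups, Asns at 4 h was -0.28, and no other direction or call of the 10 genes turned.

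Library size alone as scaling moved the median log2 fold change of all genes from 0.027 to -0.15 at 4 h and from -0.04 to -0.24 for 4 h against 1 h. Under it Trib3 at 4 h was -0.15, and for 4 h against 1 h Atf4 was -0.15, Xbp1 -0.13 and Ddit3 -0.18. With the neuron covariate, Asns was -0.38, Sesn2 -0.17 and Eif2ak3 -0.21 at 1 h, Trib3 -0.084, Asns -0.51 and Atf3 0.0034 at 4 h, and for 4 h against 1 h Atf4 was -0.26, Xbp1 -0.075, Ddit3 -0.091 and Chac1 0.54. With the smooth muscle covariate, Sesn2 was 0.012, Atf3 0.35 and Eif2ak3 0.044 at 4 h, and for 4 h against 1 h Atf4 was -0.095 and Ddit3 -0.031. With the 3 neuron-rich libraries left out, Chac1 was -0.14, Asns -0.37 and Eif2ak3 -0.12 at 1 h, Trib3 -0.31 and Asns -1.5 at 4 h, and for 4 h against 1 h Atf4 was -0.18 and Chac1 0.16. Among the refitted list medians, 59 moved by more than the spread between replicates. The medians of all genes were not set against such a spread.

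Leaving out 1 library in turn, values that turned direction ranged at 1 h from -0.079 to 0.13 for Ern1, -0.19 to 0.53 for Sesn2, -0.1 to 1.04 for Atf3 and -0.077 to 0.37 for Eif2ak3. At 4 h they ranged from -0.43 to 0.47 for Trib3, -0.021 to 2.41 for Chac1, -1.54 to 1.41 for Asns, -0.49 to 0.21 for Sesn2, -0.38 to 0.74 for Atf3 and -0.3 to 0.12 for Eif2ak3. For 4 h against 1 h they ranged from -0.12 to 0.31 for Atf4, -0.13 to 0.17 for Atf6, -0.12 to 0.22 for Xbp1 and -0.025 to 0.14 for Ddit3. Under the same omissions Xbp1 stayed between 0.63 and 0.71 at 1 h and 0.55 and 0.89 at 4 h, and Herpud1 between 1.64 and 2.52 at 4 h. Chac1 and Trib3 are limited by depth, with 2 to 50 counts per library for Chac1.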
